A study of Mus musculus with 50 samples.

Results

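The genes described here are the 36 aminoacyl-tRNA synthetase genes of the mouse, 20 for the cytosolic enzymes and 16 for the mitochondrial ones, chosen by symbol and matched to Ensembl identifiers of the count table. They are 36 of 21647 genes listed, and all 36 had enough counts to be tested among 13294 genes. The samples were CD8+ T cells of the spleen from knockout mice (KO) and WT mice, 10 weeks old and on the C567BL/6J background as the labels spell it. The cells were purified with anti-CD8a magnetic beads and activated in culture on plate-bound anti-CD3e with soluble anti-CD28, each at 2 µg/ml, so cells of every group had passed through the same purification and the 0h cells had received no stimulus. KO cells and WT cells were each sequenced at 0h, 2h, 6h, 12h and 24h, with 5 mice per genotype at each time and 50 mRNA libraries in all. Levels are CPM, read counts scaled to a common library size, and values listed for a group run from mouse 1 to mouse 5. Log2 changes are given with their standard error (SE), and a gene was called when the adjusted p of edgeR's quasi-likelihood test was under 0.05, with Benjamini-Hochberg adjustment over all 13294 genes.

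An aminoacyl-tRNA synthetase joins an amino acid to the tRNAs that read its codons, and the charged tRNA is what the ribosome uses to build protein. Cytosolic enzymes serve the ribosomes of the cell body, and a separate set, also encoded in the nucleus and named with the suffix 2, serves the ribosomes inside mitochondria. Eprs carries the glutamyl and the prolyl enzyme in a single chain, Farsa and Farsb are the subunits of the phenylalanyl enzyme, and Gars and Kars each encode both a cytosolic and a mitochondrial form. T cells enlarge and raise protein synthesis after stimulation, and several cytosolic synthetase genes are known targets of ATF4, the transcription factor of the amino acid response.

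Some libraries stood apart before any comparison. WT mice 1 and 4 carried a summed level of 4 immature thymocyte markers of 1194 and 895 CPM at 0h. The same sum lay between 7.76 and 56.9 CPM in the 5 KO mice and between 8.34 and 30.3 CPM in the other 3 WT mice. Cd4 reached 86.0 CPM in these mice and at most 1.38 CPM in all other libraries, and the 5 CD8 T cell markers were detected in every library. At 0h their sum was 3992 to 6041 CPM in KO mice, 1931 and 2416 CPM in WT mice 1 and 4, 5187 and 5377 CPM in WT mice 2 and 5, and 15208 CPM in WT mouse 3, which stands apart. WT mouse 3 also had the shallowest library, with a total of 9571625 counts at 2h, the lowest of the series, where totals reached 31293872. In the same mice 1 and 4 the summed level of the cytosolic synthetases already stood at 5067 and 4459 CPM at 0h, where the other WT mice lay between 2365 and 3561 CPM. At 6h it stood at 3816 and 4626 CPM, below the 6467 to 6738 CPM of the others. The counts and medians of the synthetase classes in WT cells and the comparisons with KO cells are therefore given with and without mice 1 and 4, while other WT values are of all 5 mice unless stated, and the part of the immature cells in them was not tested. In such bulk samples, fewer cells of a kind and less RNA per cell cannot be told apart.

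The cytosolic genes rose as a class after activation, and the mitochondrial genes did not move together. The summed level of the 20 cytosolic genes in KO cells was 2475, 2528, 2718, 2913 and 3013 CPM at 0h. By 2h it spanned 2931 to 3407 CPM, by 6h 5796 to 6902 CPM, by 12h 6742 to 7111 CPM and by 24h 6919 to 7360 CPM. WT mice 2, 3 and 5 reached 6890 to 7195 CPM by 24h. Every KO library from 6h on thus lay above every KO library at 0h and 2h, and the same held for WT mice 2, 3 and 5 but not for WT mice 1 and 4, as the plot of summed levels shows. The 15 mitochondrial genes other than Lars2 summed in KO cells to 649 to 683 CPM before activation, to 470 to 519 CPM by 2h and to 883 to 917 CPM by 24h. This class dipped at 2h, when no KO library reached the lowest KO library at 0h. The ratio of the cytosolic to the mitochondrial sum without Lars2 was 3.73 to 4.41 in KO cells at 0h and 8.40 to 9.24 at 6h, and in WT cells it was 3.45 to 5.85 at 0h and 5.47 to 8.90 at 6h.

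**Figure D1:**
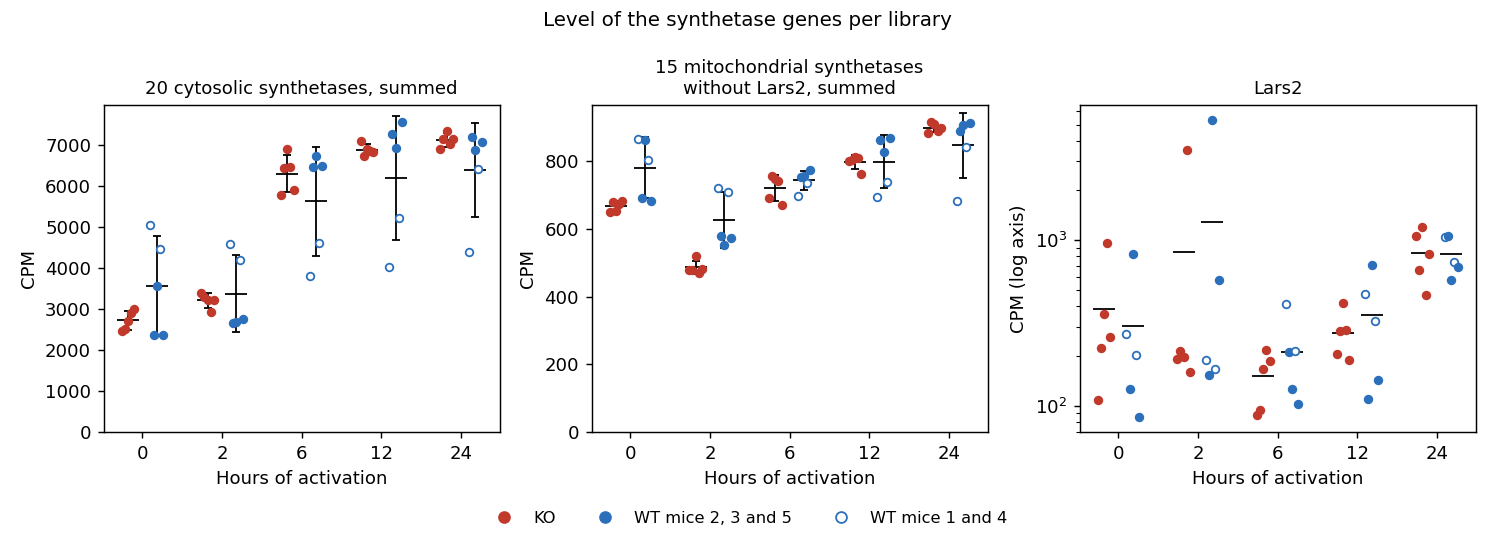
Summed level in CPM of the 20 cytosolic genes, of the 15 mitochondrial genes without Lars2, and the level of Lars2 on a log axis, against hours of activation. Each point is a library, the horizontal line is the mean of 5 libraries and error bars are the SD (not drawn on the log axis). KO libraries at 24h sum to 6919 to 7360 CPM in the first panel, and the open points of WT mice 1 and 4 lie apart from the other WT libraries.

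The class sums and their ratio above were not scaled by transcript length. Per kilobase of the principal transcript, the only scale on which levels of single genes are compared here, the median cytosolic gene stood at 51.7 CPM per kilobase in KO cells and 60.8 in WT cells at 0h, and at 110 in KO cells and 106 in WT cells at 24h. The median mitochondrial gene stood at 15.6 CPM per kilobase in KO cells and 18.8 in WT cells at 0h, and at 14.1 in KO cells and 13.4 in WT cells at 24h. Kars, the lysyl enzyme, had the highest mean cytosolic level per kilobase in both genotypes at 0h, at 97.7 ± 14.8 in KO cells and 137 ± 62.7 in WT cells (SD, n = 5 each). Cars, the cysteinyl enzyme, had the lowest, at 13.7 ± 1.11 in KO cells and 23.7 ± 10.9 in WT cells. In WT cells neither place is resolved, since Vars (101 ± 38.9) lay within the SD of Kars and Tars (29.5 ± 11.3) within that of Cars. The next genes above Cars in KO cells, Aars at 20.5 ± 2.41 and Tars and Yars both at 23.1, differed by less than the SD of Tars (3.09) or Yars (5.38), so their order is not resolved.

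In KO cells 6 cytosolic genes were called higher and 2 lower at 2h, 17 higher and 0 lower at 6h, 19 higher and 0 lower at 12h and 20 higher and 0 lower at 24h, each against the same 5 libraries at 0h. Over all genes tested, 20.3% were called higher and 19.6% lower at 2h, 26.8% higher and 22.4% lower at 6h, 27.8% higher and 25% lower at 12h, and 30.7% higher and 28% lower at 24h, which makes 39.9%, 49.2%, 52.8% and 58.7% called in either direction. The median log2 change of the cytosolic class was 0.24, 1.30, 1.47 and 1.49 at 2h, 6h, 12h and 24h, beside a median over all genes of -0.08, -0.04, -0.03 and 0.02. The share of the class called higher from 6h on was thus far above that of the table as a whole, whereas at 2h the class was mixed. Cars (1.46), Nars (1.11), Eprs (0.84), Tars (0.81), Aars (0.72) and Rars (0.63) were the 6 genes called higher at 2h, and Vars (-1.12) and Dars (-1.05), the valyl and aspartyl enzymes, were the 2 called lower. With library totals in place of the scaling, the median over all genes moved by over 0.1 in KO cells, to -0.25 at 2h and -0.21 at 6h, and the cytosolic counts were 5 higher and 4 lower at 2h and 17 higher and 0 lower at 6h. In that fit 15.1% of all genes were called higher and 24.7% lower at 2h, and 21.7% and 26.8% at 6h.

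In WT cells 1 cytosolic gene was called higher and 3 lower at 2h, 12 higher and 0 lower at 6h, 15 higher and 0 lower at 12h and 18 higher and 0 lower at 24h. Over all genes tested, 14% were called higher and 16.2% lower at 2h, 20.2% higher and 19.7% lower at 6h, 19.3% higher and 20.2% lower at 12h, and 19.9% higher and 24.2% lower at 24h, which makes 30.2%, 39.9%, 39.4% and 44.1% in either direction. Median log2 changes of the class were 0.01, 0.67, 0.88 and 0.97 at the 4 later times. Without WT mice 1 and 4 the WT counts became 8 higher and 7 lower at 2h, 17 higher and 0 lower at 6h, 18 higher and 0 lower at 12h and 19 higher and 0 lower at 24h, with medians of 0.06, 1.33, 1.48 and 1.47. In that fit 21.9% of all genes were called higher and 27.7% lower at 2h, 28.6% and 31.2% at 6h, 28% and 32.2% at 12h, and 32.5% and 32% at 24h. In fits of only the libraries compared, the calls over all 36 members in WT cells were 0, 6, 6 and 12 at the 4 later times, where the fit of all libraries had 10, 19, 22 and 25, and 5, 14, 19 and 20 had an unadjusted p under 0.05. The shares of all genes called in these restricted fits are not given here, so their counts cannot be set against the table as a whole. The genes called higher in both genotypes numbered 11 at 6h, 15 at 12h and 18 at 24h with all mice, and 17, 18 and 19 without mice 1 and 4, and Sars and Dars were the 2 cytosolic genes not called in WT cells at 24h with all mice. Sars, the seryl enzyme, changed by 0.04 in WT cells at that time and was called higher in KO cells at 0.65.

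**Figure D2:**
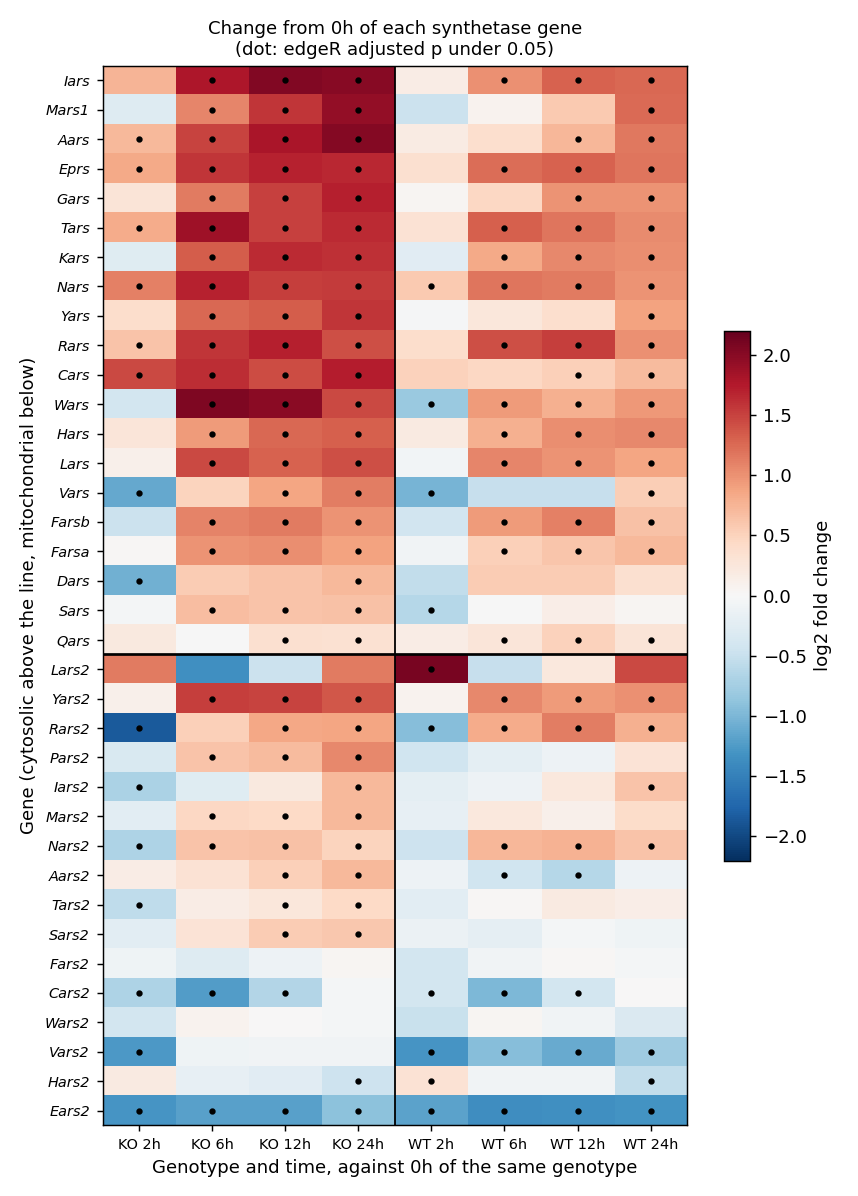
Log2 change from 0h of each of the 36 genes (rows, cytosolic above the line and mitochondrial below) at 2h, 6h, 12h and 24h in KO cells (left) and in WT cells (right). Red is higher and blue lower than at 0h, and a dot marks an adjusted p under 0.05. All 20 cytosolic genes carry a dot in KO cells at 24h, and Ears2 carries a dot in blue at every time in both genotypes.

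The largest changes at 6h among cytosolic genes called in both genotypes were those of Tars, Wars, Rars and Nars. Tars, the threonyl enzyme, measured 287, 318, 398, 334 and 344 CPM in KO cells at 6h and 84.8, 92.4, 76.7, 108 and 99.6 CPM at 0h. In WT cells Tars measured 175, 341, 350, 222 and 377 CPM at 6h and 176, 83.2, 81.8, 159 and 91.3 CPM at 0h. The KO libraries at 6h and 0h did not overlap, whereas WT mouse 1 stood at the same level at both times. Its log2 change was 1.86 (SE 0.201, adjusted p = 1.22e-09) in KO cells and 1.31 (SE 0.198, adjusted p = 1.33e-06) in WT cells, and 2.05 (SE 0.121) in WT cells without mice 1 and 4.

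Wars, the tryptophanyl enzyme, which is also known as an interferon-inducible gene, was the 1 of these 4 genes not called higher in KO cells at 2h. It measured 46.4, 69.5, 45.0, 60.9 and 60.6 CPM in KO cells at 2h and 73.3, 79.7, 55.0, 89.0 and 75.9 CPM at 0h, a log2 difference of -0.40 (adjusted p = 0.151). At 6h it measured 362, 332, 286, 349 and 231 CPM in KO cells, all above every KO library at 0h, with a log2 change of 2.06 (SE 0.230, adjusted p = 2.2e-09). In WT cells Wars fell at 2h by 0.82 (adjusted p = 0.0042) and rose at 6h by 0.94 (SE 0.223, adjusted p = 0.000781), with 87.8, 313, 274, 192 and 205 CPM at 6h and 130, 80.6, 166, 113 and 69.5 CPM at 0h. WT libraries at 6h overlapped those at 0h through mouse 1 alone at the low end, and without mice 1 and 4 the WT values were -1.06 at 2h and 1.32 at 6h. The WT fall at 2h was not called without WT mouse 3. Its level in KO cells was lower again at 24h, at 199 to 209 CPM, than at 6h.

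Nars, the asparaginyl enzyme, was the 1 cytosolic gene called higher at 2h in both genotypes with all mice, where the fit without WT mice 1 and 4 called 8 such genes. It measured 394, 348, 368, 299 and 352 CPM in KO cells at 2h and 136, 153, 137, 186 and 205 CPM at 0h, which do not overlap, and rose by 1.11 (SE 0.203, adjusted p = 2.62e-05). In WT cells the rise at 2h was 0.57 (SE 0.202, adjusted p = 0.0268), a call lost with only the libraries compared and without WT mouse 2 (0.51), 3 (0.54) or 5 (0.50), and it was 0.87 without mice 1 and 4. Rars, the arginyl enzyme, measured 256 to 345 CPM in KO cells at 6h and between 81.8 and 125 CPM at 0h, and it rose by 1.58 (SE 0.199) in KO cells and 1.42 (SE 0.198; 2.05 without mice 1 and 4) in WT cells, with adjusted p values of 2.68e-08 and 3.14e-07. Its mean was highest at 12h in both genotypes, at 337 ± 16.4 CPM in KO cells and 366 ± 128 CPM in WT cells (SD, n = 5 each).

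**Figure D3:**
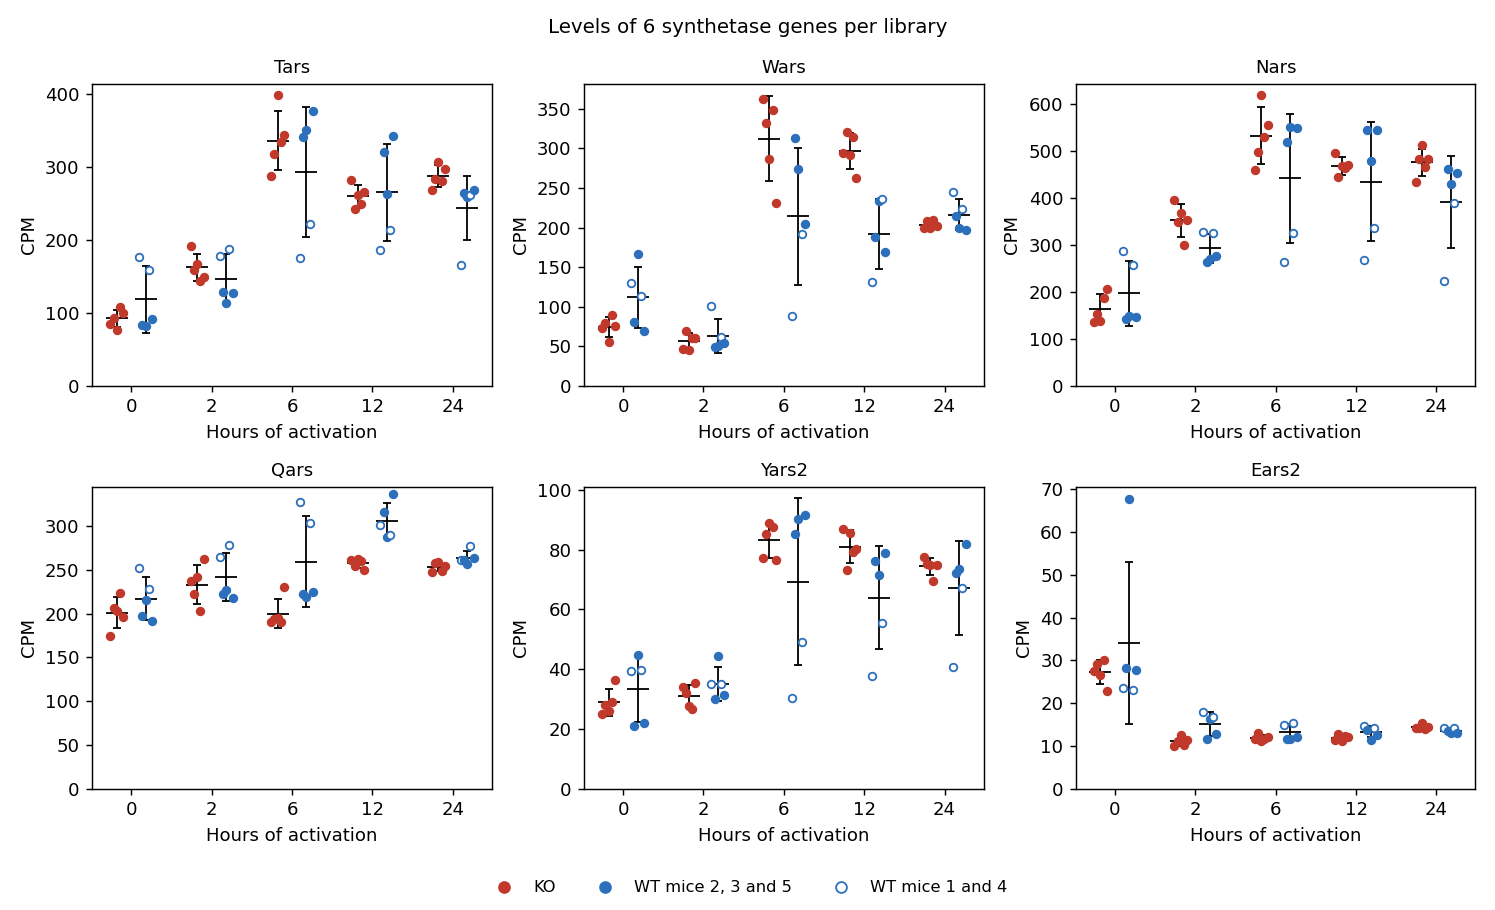
Level in CPM of Tars, Wars, Nars, Qars, Yars2 and Ears2 in every library against hours of activation, with KO left of WT at each time. Points are libraries, horizontal lines means and error bars SD of 5 libraries, and open points are WT mice 1 and 4. Tars in KO cells lies between 287 and 398 CPM at 6h and between 76.7 and 108 CPM at 0h, and Ears2 runs the other way.

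RefSeq promoter windows of GRCm38.p6, from 250 bases before to 50 after a start site, were at hand for 13 of the 20 cytosolic and 14 of the 16 mitochondrial genes, and were searched on both strands for the composite C/EBP-ATF motif TTNCATCA, to which ATF4 is known to bind, and for the E-box CACGTG, which Myc and its relatives bind. The composite letters stood in windows of 5 cytosolic genes, Aars, Gars, Iars, Tars and Yars, and of 0 mitochondrial genes. Of all 32851 single windows, 3.97% held them. The E-box stood in windows of 4 cytosolic genes (Aars, Farsb, Iars and Tars) and of 1 mitochondrial gene (Ears2), and in 7.15% of all windows. The class counts are of genes and the shares are of windows, so they differ in unit. A match describes letters, not a bound site. The 5 genes with the composite motif are shown because ATF4 binding is known for this family and all 5 rose at 6h in KO cells, by 1.14 to 1.86, as 17 of the 20 cytosolic genes did. In WT cells at 6h Iars (1.00) and Tars (1.31) were called, and Aars (0.37), Gars (0.45) and Yars (0.25) were not, while without WT mice 1 and 4 all 5 were. In KO cells at 2h Aars and Tars were called and the other 3 were not. Capitals mark the matches of both motifs, the sequences read along the gene's own strand, and positions count from the start site of the window, with -1 the base before it. For Aars and Yars that start site is not the start of the RefSeq gene.
Aars, chr8:111033656-111033858, plus strand: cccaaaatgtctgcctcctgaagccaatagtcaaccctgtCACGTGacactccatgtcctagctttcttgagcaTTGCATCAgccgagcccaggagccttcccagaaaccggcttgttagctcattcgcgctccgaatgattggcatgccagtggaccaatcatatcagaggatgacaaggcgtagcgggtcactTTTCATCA
Gars, chr6:55037931-55037998, plus strand: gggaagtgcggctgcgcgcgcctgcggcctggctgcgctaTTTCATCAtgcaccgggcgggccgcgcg
Iars, chr13:49682021-49682144, plus strand: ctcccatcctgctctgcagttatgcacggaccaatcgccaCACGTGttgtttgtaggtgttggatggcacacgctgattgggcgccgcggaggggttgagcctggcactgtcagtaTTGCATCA
Tars, chr15:11399634-11399713, minus strand: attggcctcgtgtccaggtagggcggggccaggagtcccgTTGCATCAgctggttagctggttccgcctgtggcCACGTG
Yars, chr4:129189866-129189913, plus strand: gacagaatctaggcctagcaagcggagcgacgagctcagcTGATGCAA

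Both composite matches of Aars, at -112 and at 10, differ at the open letter of the motif, and the match of Tars lies at -15. Yars carries the match on the opposite strand. The 5 genes with the composite letters were called higher in KO cells at 6h, 12h and 24h, as were most cytosolic genes with other windows or none.

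Vars, the valyl enzyme, had the smallest mean change of the cytosolic genes at 6h, after a fall at 2h in both genotypes. Vars, on chromosome 17 from 35000987 to 35016322 of GRCm38, measured 121, 151, 143, 138 and 140 CPM in KO cells at 2h and 317, 281, 315, 286 and 306 CPM at 0h, a fall of 1.12 (SE 0.217, adjusted p = 6.09e-05). In WT cells it fell by 1.03 (SE 0.217, adjusted p = 0.000305). By 24h Vars was called higher in KO cells, at 1.13 (adjusted p = 2.84e-05). The WT change of 0.54 at 24h (adjusted p = 0.0396) lost its call in 12 alternatives, among them RLE scaling, DESeq2 and omission of WT mouse 2 (0.33), 3 (0.52) or 5 (0.41), and was 1.06 without mice 1 and 4 (adjusted p = 4.28e-06). Its mean log2 change over both genotypes at 6h was -0.01, which joins a positive change in KO cells with a negative one in WT cells. The small mean thus does not describe either genotype, and in WT cells Vars was still at -0.51 at 12h. Qars, the glutaminyl enzyme, stayed between 175 and 337 CPM in all 50 libraries. In KO cells it rose by 0.36 at 12h (SE 0.0999, adjusted p = 0.0025) and by 0.34 at 24h (SE 0.0999, adjusted p = 0.00401), the smallest called changes of the class in KO cells at these times. With library totals both were 0.18 and not called.

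At 2h most mitochondrial genes lay below their 0h level, with a positive change in 4 of 16 in KO cells and 3 of 16 in WT cells. From 6h on the class held genes called in each direction in both genotypes. In KO cells 0 of 16 were called higher and 7 lower at 2h, 4 higher and 2 lower at 6h, 8 higher and 2 lower at 12h and 9 higher and 2 lower at 24h, with medians of -0.37, 0.12, 0.23 and 0.54. In WT cells 2 were called higher and 4 lower at 2h, 3 and 4 at 6h, 3 and 4 at 12h and 4 and 3 at 24h, with medians of -0.31, -0.10, -0.01 and 0.07. In KO cells the share of the class called lower at 2h (7 of 16) was above the 19.6% of all genes, and the share called higher at 24h (9 of 16) was above the 30.7% of all genes. At 6h 4 higher and 2 lower of 16 in KO cells stood beside 26.8% and 22.4% of all genes. In WT cells 20.2% of all genes were called higher and 19.7% lower at 6h, 19.3% and 20.2% at 12h, and 19.9% and 24.2% at 24h. Calls in both directions at these points did not set the class apart from the table as a whole. With library totals the KO counts were 0 higher and 9 lower at 2h, 1 and 4 at 6h, 3 and 3 at 12h and 7 and 2 at 24h. In that fit 15.1% of all genes were called higher and 24.7% lower at 2h, 21.7% and 26.8% at 6h, 22% and 30.7% at 12h, and 25.5% and 32.4% at 24h. The class median at 6h was -0.04 beside -0.21 for all genes. The sign of the KO median at 6h and the balance of calls at 6h and 12h thus depended on the scaling, as did the balance over all genes. With WT mice 1 and 4 left out, the WT counts were 2 higher and 8 lower at 2h, 4 and 3 at 6h, 6 and 4 at 12h and 7 and 4 at 24h, where 27.7%, 31.2%, 32.2% and 32% of all genes were called lower and 21.9%, 28.6%, 28% and 32.5% higher. The class was above the share of all genes called lower at 2h and not at the later times.

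Yars2, the mitochondrial tyrosyl enzyme, followed the cytosolic course. It measured 77.3, 85.2, 89.1, 87.5 and 76.5 CPM in KO cells at 6h and 25.1, 27.9, 26.0, 29.1 and 36.3 CPM at 0h, with no overlap. In WT cells it measured 30.3, 85.3, 90.4, 49.1 and 91.6 CPM at 6h and 39.4, 20.9, 44.6, 39.7 and 22.1 CPM at 0h, where mouse 1 was the 1 library at 6h inside the range of those at 0h. The log2 rise was 1.52 (SE 0.219, adjusted p = 3.07e-07) in KO cells and 1.06 (SE 0.216, adjusted p = 0.000132) in WT cells, and 1.61 in WT cells without mice 1 and 4. Nars2, the mitochondrial asparaginyl enzyme, dipped before it rose. In KO cells it measured between 15.3 and 21.6 CPM at 0h, between 9.98 and 13.0 CPM at 2h and between 23.1 and 31.2 CPM at 6h, groups that do not overlap, with a fall of 0.68 at 2h (adjusted p = 0.00701) and a rise of 0.63 at 6h (adjusted p = 0.01). The rise lost its call with library totals (0.47) and without KO mouse 1 (0.59), 2 (0.57) or 4 (0.57), and the fall without KO mouse 3 (-0.60). In WT cells the rise at 6h was 0.73 (adjusted p = 0.00423), and 0.40 without WT mouse 3, where it was not called.

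Ears2, the mitochondrial glutamyl enzyme, fell early and stayed low. It measured 10.0, 11.2, 12.5, 10.3 and 11.4 CPM in KO cells at 2h and 27.6, 29.1, 26.5, 30.0 and 22.8 CPM at 0h. In WT cells it measured 18.0, 11.6, 16.3, 16.7 and 12.9 CPM at 2h and 23.5, 28.3, 67.7, 23.0 and 27.7 CPM at 0h. No library at 2h or later reached the lowest library at 0h in either genotype. The fall was 1.29 (SE 0.177, adjusted p = 1.54e-07) in KO cells and 1.17 (SE 0.177, adjusted p = 2.2e-06) in WT cells at 2h, and at 24h it was 0.91 in KO cells and 1.32 in WT cells (adjusted p = 2.96e-05 and 1.66e-07). Ears2 overlaps Ubfd1 on the opposite strand, and whether reads of the shared stretch were separated by strand is not known, since the strand setting is not given. Cars2, the mitochondrial cysteinyl enzyme, also fell, most at 6h, and was back by 24h. It measured 22.5, 20.5, 18.5, 21.0 and 23.9 CPM in KO cells at 6h and 52.7, 52.8, 53.2, 46.2 and 45.6 CPM at 0h, a fall of 1.23 (SE 0.141, adjusted p = 3.67e-09), beside a fall of 0.98 (SE 0.141, adjusted p = 4.77e-07) in WT cells. At 24h the difference from 0h was -0.04 in KO cells and 0.00 in WT cells, with adjusted p values of 0.811 and 0.991.

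Vars2, the mitochondrial valyl enzyme, had the same early fall as its cytosolic counterpart in KO cells, by 1.26 at 2h (SE 0.198, adjusted p = 1.78e-06), and was at -0.09 at 6h (adjusted p = 0.704). In WT cells it fell by 1.29 at 2h and was still called lower at 24h, at -0.78 (SE 0.195, adjusted p = 0.0013). Lars2, the mitochondrial leucyl enzyme, stood apart from all other members in its spread. Within KO cells at 2h it measured 192, 214, 198, 3496 and 161 CPM, and within WT cells at 2h 190, 154, 5358, 168 and 579 CPM. Its 1 call, higher in WT cells at 2h at 2.09 (SE 0.812, adjusted p = 0.0458), rests on the library of mouse 3: without that mouse it was 0.72 (SE 0.709, adjusted p = 0.537). Over the other alternatives the adjusted p was 0.0177 (DESeq2) to 0.333 (only the libraries compared). The sums above leave out Lars2 for this reason. The cause of these high libraries was not tested.

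The genes that assist charging were read from a fixed list. The scaffold proteins Aimp1, Aimp2 and Eef1e1, which hold several cytosolic synthetases in a complex, were 3 of 3 called higher in KO cells at 6h, 12h and 24h, where 26.8%, 27.8% and 30.7% of all genes were, and 2, 3 and 2 of 3 in WT cells, where 20.2%, 19.3% and 19.9% were. Eef1e1 had the largest change of the 3, at 2.22 in KO cells and 2.09 in WT cells at 6h. The amidotransferase genes Gatb, Gatc and Qrsl1, whose complex makes the glutaminyl-tRNA of mitochondria, had 1, 2 and 3 of 3 called higher in KO cells at 6h, 12h and 24h, and 1 of 3 at each of these times in WT cells. At 2h Gatb was called lower in both, by 1.30 in KO cells and 0.94 in WT cells. Of 11 other charging genes, 3 were called higher and 3 lower in KO cells at 6h and 4 higher and 2 lower in WT cells, where 26.8% and 22.4% of all genes were in KO cells and 20.2% and 19.7% in WT cells. Among them Xpot, the exporter of tRNA from the nucleus, rose at 6h by 1.80 in KO cells and 0.81 in WT cells, and Trnt1, which adds the CCA end of tRNA, rose by 1.36 in KO cells and 1.25 in WT cells. Pstk, the kinase of the selenocysteine pathway, fell at 6h by 0.92 in KO cells and 0.94 in WT cells.

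A list of 14 ATF4 targets outside the family, with Atf4 itself, was read for comparison. It had 10 genes called higher and 0 lower in KO cells at 2h, 11 and 0 at 6h, 11 and 1 at 12h and 11 and 1 at 24h, and in WT cells 7 and 0, 7 and 0, 5 and 0, and 10 and 1. Over all genes 20.3% to 30.7% were called higher in KO cells and 14% to 20.2% in WT cells at these times. Without WT mice 1 and 4 the WT counts were 9 and 1, 13 and 0, 10 and 1, and 13 and 1. In that fit 21.9%, 28.6%, 28% and 32.5% of all genes were called higher in WT cells at these times. Chac1, which breaks down glutathione, rose at 2h by 4.81 in KO cells and 3.79 in WT cells, and Atf4 rose by 1.32 in KO cells and 1.30 in WT cells. The median change of this list at 2h, 1.41 in KO cells and 0.78 in WT cells, stood above that of the cytosolic synthetases, 0.24 in KO cells and 0.01 in WT cells. Asns, the asparagine synthetase and a textbook ATF4 target, was not called at any of the 4 times in either genotype with all mice, whereas without WT mice 1 and 4 it was called lower at 2h (-0.83) and higher at 24h (1.14) in KO cells and higher at 6h, 12h and 24h in WT cells (2.32, 2.19 and 2.85). Ddit3, which overlaps Mars1 on the opposite strand, was called lower at 24h, at -1.48 in KO cells and -1.62 in WT cells, where Mars1 was called higher.

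Differences between the genotypes depended on time and on the libraries fitted. At 0h 0 members were called higher in KO cells and 5 lower (Cars, Aars2, Pars2, Sars2 and Vars2), at 2h 0 higher and 7 lower (Dars, Aars2, Pars2, Rars2, Sars2, Tars2 and Vars2), at 6h 0 higher and 1 lower (Qars), at 12h 2 higher (Vars and Aars2) and 0 lower, and at 24h 0 in either direction. Over all genes tested 2.34% were called higher and 5.59% lower at 0h (7.93% in all), 2.9% and 8.9% at 2h (11.8%), 2.53% and 7.59% at 6h (10.1%), 5.54% and 7.55% at 12h (13.1%), and 0.00752% and 0.0376% at 24h (0.0451%), so 5 and 7 of 36 members lay somewhat above the share of all genes at 0h and 2h, and 1 and 2 of 36 below it at 6h and 12h. Libraries of the same mouse at other times entered this fit as if independent, so adjusted p values may be too small. In edgeR fits of only the 10 libraries compared, 0 members were called at 0h, 2h, 6h and 24h and 7 at 12h, where 0%, 0.0168%, 0.44%, 0.182% and 29.9% of all genes were called, and 3, 6, 8, 0 and 9 members had an unadjusted p under 0.05 at these times in the same order. Without WT mice 1 and 4 the fit of all times called 10, 6, 0, 11 and 0 members in order of time, where 22.4%, 4.1%, 4.16%, 23% and 0.0453% of all genes were called. With both restrictions the counts were 0, 0, 3, 19 and 0, where 0%, 0.157%, 15%, 53.3% and 5.24% of all genes were called. With libraries of a mouse as a block 2 of the 5 calls at 0h were kept (Aars2 and Vars2) and 3 of the 7 at 2h (Sars2, Tars2 and Vars2). The others had adjusted p values of 0.0879 to 0.121 at 0h and 0.0699 to 0.201 at 2h, and at 12h Aars2 had 0.0592. At 24h 0 members were called by edgeR and 0 by DESeq2, and 0 had an unadjusted p under 0.05 with either tool.

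**Figure D4:**
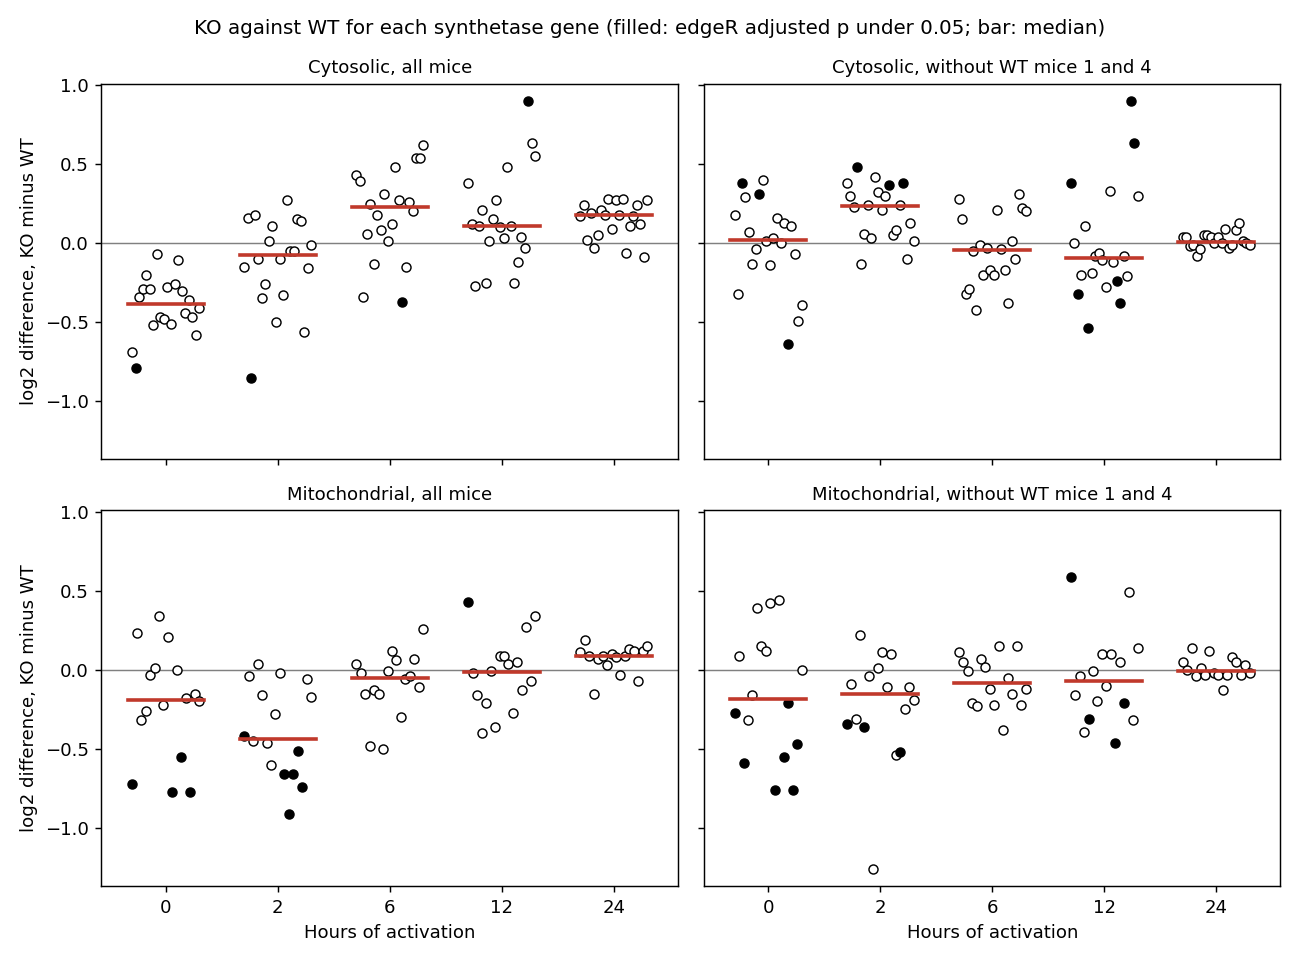
Log2 difference, KO minus WT, of each cytosolic gene (top) and mitochondrial gene (bottom) at each time, with all mice (left) and without WT mice 1 and 4 (right). Each circle is a gene, filled where the adjusted p is under 0.05, and the red bar is the median. The cytosolic median at 0h is -0.38 with all mice and 0.02 without WT mice 1 and 4.

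The medians moved with the same WT mice. The median log2 difference of the cytosolic genes was -0.38, -0.07, 0.22, 0.11 and 0.17 in order of time, and without WT mice 1 and 4 it was 0.02, 0.23, -0.05, -0.09 and 0.01. The lower level at 0h and the higher one at 6h in KO cells are therefore not seen against the WT mice with low thymocyte markers. Dars and Rars2 turned direction at 2h, at -0.85 and -0.91 with all mice and at 0.23 and 0.10 without the 2 mice.

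Vars at 12h was the difference that held throughout. It measured 498, 555, 555, 583 and 542 CPM in KO cells and 238, 270, 391, 321 and 241 CPM in WT cells at 12h, with no overlap. The log2 difference was 0.90 (SE 0.216, adjusted p = 0.00732), and 0.90 (SE 0.164, adjusted p = 0.000189) without WT mice 1 and 4. It was called in all 18 alternative settings, with values of 0.82 to 1.04 and adjusted p values of 0.000189 to 0.0349. At 24h the groups overlapped, with 628 to 673 CPM in KO cells and 504 to 751 CPM in WT cells. Aars2, the mitochondrial alanyl enzyme, crossed over with time. It measured 30.5, 30.7, 24.6, 26.9 and 23.8 CPM in KO cells and 68.4, 34.3, 35.2, 57.5 and 29.1 CPM in WT cells at 0h, and 40.6, 39.6, 40.5, 40.2 and 35.7 CPM in KO cells and 34.2, 25.6, 30.6, 31.4 and 24.2 CPM in WT cells at 12h. The groups overlapped at 0h and did not at 12h, and KO libraries were the lower ones at 0h and the higher ones at 12h. Its log2 difference was -0.72 (SE 0.145, adjusted p = 0.00327) at 0h and 0.43 (SE 0.145, adjusted p = 0.0423) at 12h. The one at 0h was -0.27 without WT mice 1 and 4 (adjusted p = 0.0494) and lost its call in 2 of 18 alternatives (adjusted p 0.000221 to 0.554), and the one at 12h lost its call in 11 of 18 (adjusted p 9.97e-05 to 0.168).

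At 12h 9 of the 36 members had all 5 KO libraries on one side of all 5 WT libraries, where 24.4% of all genes tested did so. Aars, Mars1, Vars, Wars, Yars and Aars2 were higher in KO cells, and Dars, Qars and Fars2 lower. At 2h 3 members did so (Aars2, Sars2 and Tars2, all lower in KO cells) where 6.08% of all genes did, at 6h 1 (Dars, lower) where 11% did, at 24h 2 (Sars and Tars2, higher) where 5.9% did, and at 0h 0 where 3.1% did. Set against these shares, the members did not stand out at any time.

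**Figure D5:**
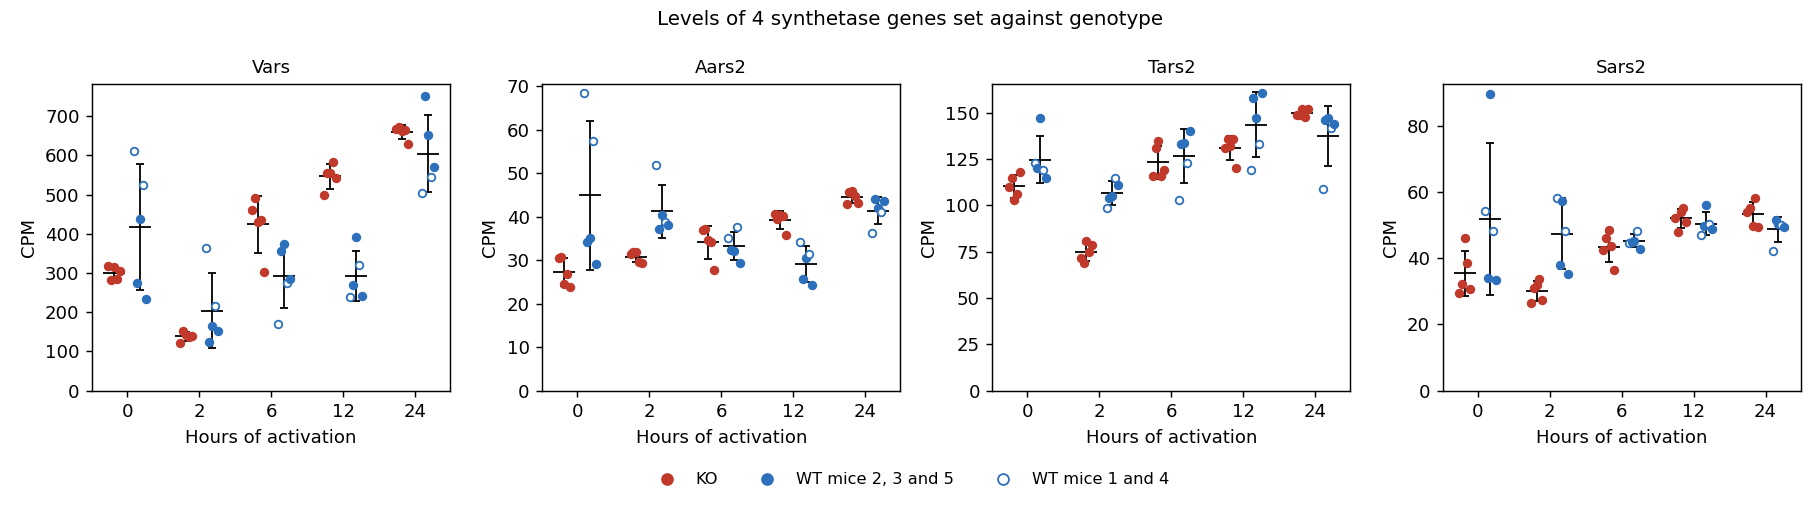
Level in CPM of Vars, Aars2, Tars2 and Sars2 in every library against hours of activation, with KO left of WT at each time. Points are libraries, lines means and error bars SD of 5 libraries, and open points are WT mice 1 and 4. Vars at 12h lies at 498 to 583 CPM in KO cells and 238 to 391 CPM in WT cells.

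Tars2, Sars2, Vars2 and Qars made up the rest of the genotype calls with the smallest p values. Tars2, the mitochondrial threonyl enzyme, measured 71.4, 69.2, 80.8, 75.1 and 78.8 CPM in KO cells and 98.7, 104, 105, 115 and 111 CPM in WT cells at 2h, with no overlap and a log2 difference of -0.51 (SE 0.0904, adjusted p = 0.00079). The call was lost in fits of only the 10 libraries compared, where the difference was -0.49 (adjusted p = 0.142, the highest of 18 alternatives, with 1.64e-05 the lowest). Sars2, the mitochondrial seryl enzyme, measured 26.5, 31.0, 31.8, 33.6 and 27.3 CPM in KO cells and 58.2, 37.8, 57.3, 48.2 and 35.3 CPM in WT cells at 2h, again with no overlap, a difference of -0.66 (SE 0.163, adjusted p = 0.0119) that was not called without WT mice 1 and 4 (-0.54, adjusted p = 0.109, with 0.00274 to 0.214 over the alternatives). Vars2 measured 61.5, 56.2, 45.2, 59.0 and 61.2 CPM in KO cells and 107, 65.1, 163, 87.4 and 61.1 CPM in WT cells at 0h, where WT mouse 3 was the highest and the groups met at their edges. Its difference at 0h was -0.77 (SE 0.195, adjusted p = 0.0159), and -0.76 without WT mice 1 and 4 (adjusted p = 0.00385, with 0.00306 to 0.554 over the alternatives). Without WT mouse 3 it was -0.49 (adjusted p = 0.0351). Qars at 6h measured 190, 194, 195, 191 and 230 CPM in KO cells and 327, 222, 219, 304 and 225 CPM in WT cells, where mice 1 and 4 were the 2 highest. Its difference of -0.37 (SE 0.0999, adjusted p = 0.0205) was -0.17 without them (adjusted p = 0.217, the highest of 18 alternatives, with 0.00153 the lowest).

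A call in one genotype alone does not show that the genotypes responded differently, so the difference of the changes from 0h was tested itself. It was called for 0 members at 2h and 24h, where 0.015% and 0.0752% of all genes were called (0.015% higher and 0% lower at 2h, 0.015% and 0.0602% at 24h), for 3 members at 6h (2.47% of all genes, 2.09% higher and 0.376% lower) and for 5 at 12h (7.5% of all genes, 5.54% higher and 1.96% lower), all with a more positive change in KO cells. At 2h DESeq2 called 0 members and at 24h it called 1, and with edgeR 4 members had an unadjusted p under 0.05 at 2h and 10 at 24h. At 6h these were Aars2 (0.75), Cars (1.18) and Wars (1.12), and at 12h Aars (1.07), Aars2 (1.15), Vars (1.37), Vars2 (1.04) and Wars (1.21). Vars changed by 0.86 in KO cells and -0.51 in WT cells at 12h, a difference of 1.37 (SE 0.305, adjusted p = 0.00347), and Aars2 by 0.53 in KO cells and -0.62 in WT cells, a difference of 1.15 (SE 0.205, adjusted p = 0.000386). Of the 17 alternatives, the call was lost in 13 for Aars at 12h, 12 for Wars, 11 for Aars2 and 9 for Cars at 6h, and 4 for Vars2 and 1 for Wars at 12h. Vars and Aars2 at 12h were called in all 17, Vars at 0.97 to 1.48 and Aars2 at 0.86 to 1.24. With WT mice 1 and 4 left out, the difference at 12h was 0.97 for Vars, 0.86 for Aars2, 1.12 for Wars and 1.25 for Vars2, all called, while Aars (0.20, adjusted p = 0.446) was not, and the 3 calls at 6h were lost for Wars (0.72), Aars2 (0.38) and Cars (0.47). That fit called 4 other members at 6h, where 9.56% of all genes were called, and 9 members at 12h, where 20.5% were. Among the 9 was Rars, with a smaller change in KO cells at 12h, at -0.51 (SE 0.171, adjusted p = 0.0299), beside 0.18 (adjusted p = 0.755) with all mice.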

How the data were processed

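Messenger RNA of splenic CD8+ T cells was measured in 50 libraries from a stranded poly(A) kit, read as 50 nt single ends, per the labels' protocols. Of software, the notes of the submitters list CASAVA 1.8.2, STAR 2.4 and featureCounts 1.4.6, with the build GRCm38. The annotation release, the strand setting and the treatment of multiply matching reads are not given in the sources used here. The authors deposited raw counts per gene, without normalization, and these are the only values used. Library totals ran from 9571625 to 31293872, and the lowest count of any member in any library was 35. Of the 36 members, 10 overlap another gene of the table on the opposite strand. Whether reads of the shared stretches were separated by strand in the counting is not known here.

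Identifiers were matched to GENCODE M21 symbols (21583 of 21647), and Mars1 was found under its older symbol Mars. The filter was filterByExpr on the 10 groups (minimum count 10, minimum total 15) and the scaling TMM. A single robust quasi-likelihood model with 10 group means took in the 50 libraries together (edgeR 4.0.16, R 4.3.3), with a common dispersion of 0.214 and 40 residual degrees of freedom. It gave 17 comparisons: later times against 0h in each genotype, which share the 0h libraries, KO minus WT per time, and how far the changes differed between genotypes. The script was tested on simulated data. CPM used the scaled library sizes. Alternatives were RLE scaling, library totals, no filter, DESeq2 1.42.0, only the libraries compared, omission of WT mice 1 and 4 or of any mouse, and a mouse block (limma 3.58.1 for KO against WT).

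The same mouse number within a genotype is the same animal, per the labels. Deviations from group means in libraries of the same mouse correlated by 0.275 on average in KO mice and 0.562 in WT mice, and libraries sharing only a number across genotypes by -0.0128. The members, the lists and the alternatives were chosen with earlier results of these data known. Values per library are given for up to 4 genes per class called in both genotypes with the largest mean change at 6h, the gene with the smallest, and up to 6 genes called in KO against WT. The other genes named were picked after their values were seen. Mice of a genotype are separate animals. In the fit of all libraries, p values measure the spread between libraries within groups, estimated over all 10 groups together. Libraries of a mouse at other times were taken as independent there. Some items are not reported here, nor is any test of the genotype labels.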

Additional observations from a re-analysis of the deposited data

Results flagged for a closer look

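In 160 groups of 5 libraries, formed by the named genes and the summed levels, 15 held a library whose gap to its nearest neighbour was above 0.71 of the group's range, a distance that chance alone gives in about 1 of 20 groups. In KO cells these were the summed mitochondrial level without Lars2 at 2h (mouse 3, 519 CPM, next 481) and at 12h (mouse 5, 763 CPM, next 800), Qars at 6h (mouse 5, 230 CPM, next 195), Aars2 at 12h (mouse 5, 35.7 CPM, next 39.6) and Vars at 24h (mouse 5, 628 CPM, next 663). In WT cells at 0h mouse 3 stood apart in Ears2 (67.7 CPM, next 28.3), Nars2 (6.17 CPM, next 15.8) and Tars2 (147 CPM, next 123). WT mouse 1 stood apart at 2h in Aars2 (51.9 CPM, next 40.4) and Wars (101 CPM, next 61.8). It was the lowest WT library at 24h in the summed cytosolic level (4406 CPM, next 6425), Rars (182 CPM, next 261), Sars2 (42.0 CPM, next 49.4), Tars (165 CPM, next 259) and Tars2 (109 CPM, next 142). WT mouse 1 carried immature thymocyte markers, as did WT mouse 4, which was not the library standing apart in any of the 15 groups. The part of the markers in the values of mouse 1 was not tested.

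The changes from 0h differed between the genotypes by a test of the difference itself for 8 results. At 6h they were Aars2 (0.75), Cars (1.18) and Wars (1.12), and at 12h Aars (1.07), Aars2 (1.15), Vars (1.37), Vars2 (1.04) and Wars (1.21), all log2 values with a more positive change in KO cells. The call was lost in 13 of 17 alternatives for Aars at 12h, 12 for Wars, 11 for Aars2 and 9 for Cars at 6h, 4 for Vars2 and 1 for Wars at 12h, and in 0 for Vars and Aars2 at 12h.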

How the results depend on the processing

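Of 17 counts of called members, RLE scaling moved 0 by over 1.5 times. The counts against 0h stayed within 1.5 times under all scalings, no filter, DESeq2 and the replicate block, and moved where libraries or mice were left out. In fits of only the libraries compared, the count at 2h was 24 in KO cells (15 in the fit of all libraries), and the WT counts were 0, 6, 6 and 12 at the 4 later times (10, 19, 22 and 25). In those WT fits 5 members at 2h had an unadjusted p under 0.05, and DESeq2 on all libraries called 13. The shares of all genes called against 0h in fits of only the libraries compared are not given here. Without WT mice 1 and 4 the count at 2h was 24 in KO cells and 25 in WT cells. In that fit 57.6% of all genes were called at 2h in KO cells and 49.7% in WT cells, beside 39.9% and 30.2% with all mice.

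Counts of KO against WT were less stable, at 5, 7, 1, 2 and 0 with all libraries. They were 1 at 0h and 2 at 6h with library totals, 1 at 12h with no filter, 4 at 12h with DESeq2, and 0, 0, 0 and 7 at 0h, 2h, 6h and 12h with only the libraries compared. With WT mice 1 and 4 left out they were 10 at 0h, 0 at 6h and 11 at 12h, and with only the libraries compared as well 0, 0, 3 and 19 at 0h, 2h, 6h and 12h, the last beside 53.3% of all genes. Under the replicate block, with libraries of a mouse as a random block (within-mouse correlation 0.243), they were 2 at 0h, 3 at 2h and 1 at 12h. Counts of members whose changes differed, 0, 3, 5 and 0 with all libraries, were 1, 0 and 3 at 2h, 6h and 12h with library totals, 1 at 6h with no filter, 5 and 1 at 6h and 24h with DESeq2, 0 and 3 at 6h and 12h with only the libraries compared, 9 at 12h without WT mice 1 and 4, and 1 at 24h under the replicate block. Over all genes, the fit without WT mice 1 and 4 called 22.4%, 4.16% and 23% in KO against WT at 0h, 6h and 12h. It called 20.5% for differing changes at 12h. With library totals 3.48% and 11.1% of all genes were called in KO against WT at 0h and 6h. Differing changes were called with those totals for 0.0677%, 0.985% and 7.04% of all genes at 2h, 6h and 12h. The cause of the moves in these counts was not tested.

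With each mouse left out in turn, the count at 2h in WT cells ranged from 5 (without WT mouse 3) to 16 (without WT mouse 1). KO against WT ranged from 1 to 10 at 0h, 1 to 11 at 2h, 0 to 6 at 6h and 1 to 6 at 12h, and the differing changes from 0 to 10 at 6h, 2 to 10 at 12h and 0 to 2 at 24h. Dars at 2h turned to 0.23 without WT mice 1 and 4 and to 0.27 with only the libraries compared as well, and Rars2 to 0.10 and 0.17. Other named calls kept their direction; outside single-mouse omission 772 values kept the call and 128 lost it. Outside single-mouse omission 49 summed levels stayed within 1 SD and 11 moved further, under RLE scaling, library totals or the omission of Lars2. Leaving out Lars2, and only the libraries compared together with omission of WT mice 1 and 4, were chosen after seeing the data.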
